A study of Danio rerio with 24 samples.

Results

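The positive arm of the circadian clock of zebrafish was followed in RNA sequencing libraries of fish that met PCB126 or its solvent DMSO early in life. PCB126 is a coplanar polychlorinated biphenyl and a ligand of the aryl hydrocarbon receptor (AHR), as dioxin is. Its 6 genes (clocka, clockb, npas2, bmal1a, bmal1b and bmal2) were found by symbol among 32105 Ensembl gene IDs, of which 26269 carried a symbol. The tables used for names write clocka and clockb alike as CLOCK (ENSDARG00000011703 and ENSDARG00000003631) and bmal1a and bmal1b alike as BMAL1 (ENSDARG00000006791 and ENSDARG00000035732), so these 4 genes are given with their Ensembl IDs and not as a or b. The other members are npas2 (ENSDARG00000016536) and bmal2 (ENSDARG00000041381). All 6 passed the filter on low counts in every comparison.

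There were 24 libraries of total RNA, 3 in each of 8 groups, and the series text calls the 3 libraries of a group biological replicates. Whole embryos at 48 hours post-fertilization (hpf) had received DMSO or 0.3 nM PCB126. DMSO, 0.3 nM and 1.2 nM PCB126 were the groups of the whole larvae, collected at 5 days post-fertilization (dpf), and of the brains, collected from adults of 4 months. All groups were exposed as embryos in embryo medium, and the adults were then raised in clean water under equal light and dark phases. The sources used here do not give the strain, the sex, the number of animals per library or the hour of sampling, so p-values measure only the spread between these libraries.

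The circadian clock is a feedback loop of transcription that runs in most vertebrate cells. CLOCK, or its relative NPAS2, pairs with BMAL1 or BMAL2, all of them bHLH-PAS proteins like AHR, and the pair binds E-box sequences and switches on the period (PER), cryptochrome (CRY) and REV-ERB (NR1D) genes, whose products then repress the pair or the BMAL1 gene. ROR nuclear receptors act on BMAL1 in the opposite sense to the REV-ERBs in mammals. In zebrafish, transcripts of the clock and bmal genes themselves rise and fall over the day, and peripheral tissues respond to light directly.

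Counts per library came to between 12480715 and 23022236 reads. In brain the DMSO libraries held 19498374 to 23022236 reads, and the exposed libraries 13097392 to 18043641. RNA of brains was prepared by another method than RNA of embryos and larvae, so age, tissue and preparation cannot be told apart between brain and the earlier ages. All 12 neuronal markers were present in every brain library, with summed levels of 5514 to 6238 CPM (CPM being read counts made comparable in depth by TMM scaling) in DMSO, 5349 to 6062 CPM at 0.3 nM and 5945 to 6359 CPM at 1.2 nM. DMSO brain replicate 3 stood apart in tissue around the brain. Its 12 markers of meninges and cartilage summed to 1944 CPM, against 405 and 478 CPM in the other DMSO brains and 139 to 284 CPM in the exposed ones. Its 11 skeletal muscle markers summed to 816 CPM, against 67.9 and 114 CPM in the other DMSO brains. These muscle markers summed to 42.8 to 70.7 CPM after 0.3 nM and to 11.6 to 64.3 CPM after 1.2 nM.

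Adult brains of fish exposed as embryos carried more transcript of most clock activators than DMSO brains, while embryos and larvae showed no called difference. After 0.3 nM, 4 of the 6 genes rose (CLOCK ENSDARG00000011703, npas2, BMAL1 ENSDARG00000035732 and bmal2), where 7.82% of all genes tested were called higher. After 1.2 nM, 4 of the 6 rose again, with BMAL1 ENSDARG00000006791 in place of npas2, against 5.69% of all genes called higher. The 6 genes were chosen with earlier results of these data known, so these shares are not a test of the set. Calls were made with the quasi-likelihood test of edgeR at a Benjamini-Hochberg adjusted p under 0.05 over all genes tested. The rises lay between 1.32-fold and 1.65-fold. Both doses were compared with the same 3 DMSO brains, so these results are not independent of each other. In whole tissue, more transcript per cell and a larger share of the cells that carry it cannot be told apart. The hour of collection is not given for any group, so exposure and hour cannot be told apart here.

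**Figure D1:**
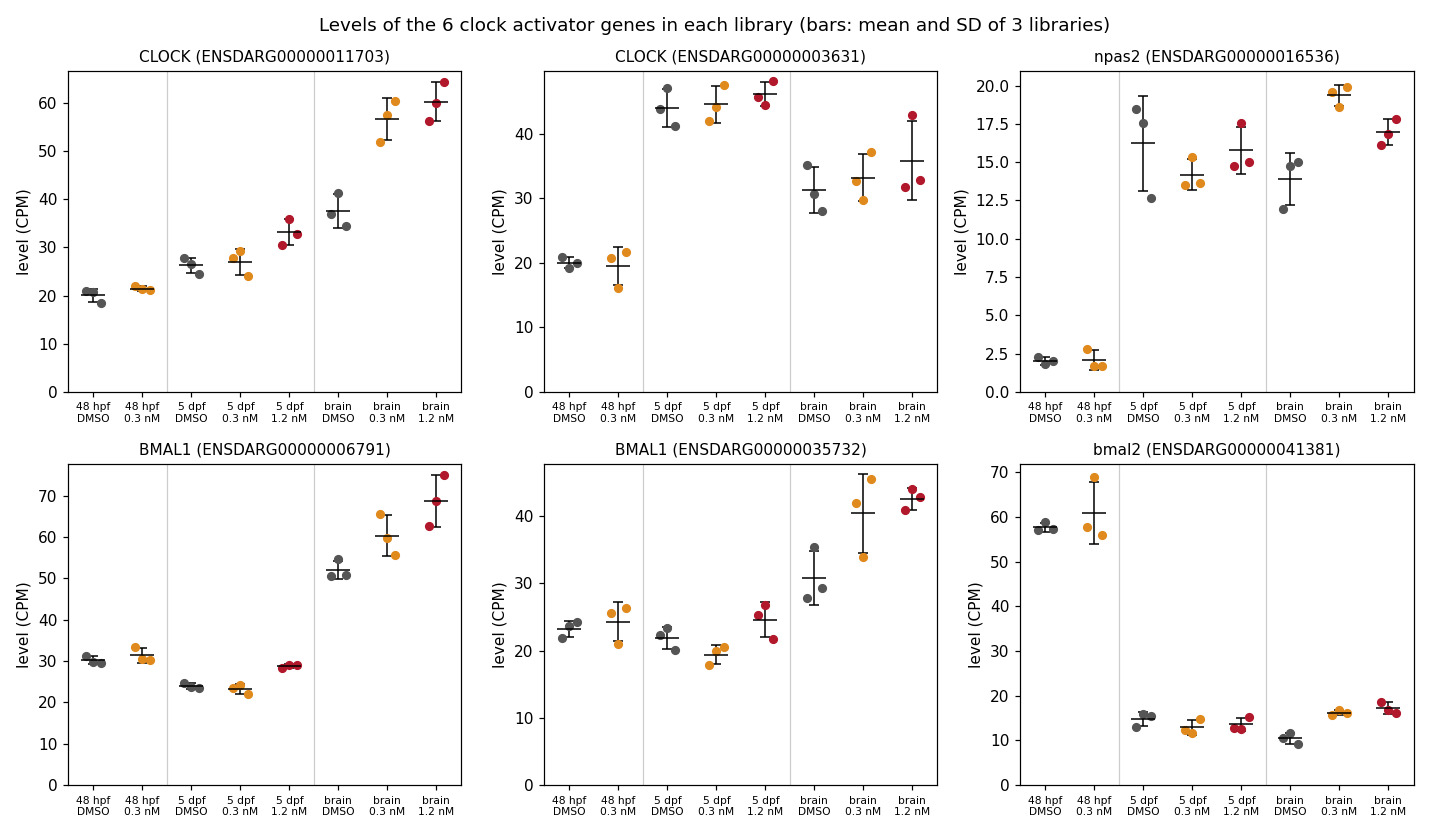
Level of each clock activator gene in CPM (linear axes from 0) in every library, by age and dose; points are libraries, and bars are the mean and SD of 3 libraries. The 3 DMSO brains lie below all 6 exposed brains for CLOCK ENSDARG00000011703 and bmal2, and bmal2 is at 56.0 to 68.9 CPM in embryos against 9.28 to 18.7 CPM in all other libraries.

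Of the CLOCK-type partners, CLOCK ENSDARG00000011703 stood at 37.0, 41.4 and 34.4 CPM in the DMSO brains, at 51.9, 57.4 and 60.5 CPM after 0.3 nM and at 56.3, 60.0 and 64.4 CPM after 1.2 nM. Every exposed brain was above every DMSO brain. The log2 fold change was 0.61 at 0.3 nM (SE 0.095, 1.52-fold, adjusted p = 0.00718, edgeR quasi-likelihood test) and 0.68 at 1.2 nM (SE 0.095, 1.61-fold, adjusted p = 0.0132). Without DMSO replicate 3, it was 0.54 at 0.3 nM and 0.62 at 1.2 nM, with edgeR adjusted p of 0.0114 and 0.0206. The 1.2 nM call was lost without 1.2 nM replicate 3 (edgeR adjusted p = 0.0672) and passed in the other 5 of the 6 fits that left out 1 library.

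The other CLOCK gene was not called at either dose. CLOCK ENSDARG00000003631 stood at 35.2, 30.7 and 28.1 CPM in DMSO brains, at 32.7, 29.8 and 37.1 CPM after 0.3 nM and at 31.8, 42.9 and 32.8 CPM after 1.2 nM. The groups overlapped at both doses. The log2 fold changes were 0.10 (95% interval -0.19 to 0.39, adjusted p = 0.646, edgeR) and 0.20 (95% interval -0.09 to 0.48, adjusted p = 0.352). These intervals leave out the estimates for CLOCK ENSDARG00000011703, whose own 95% intervals were 0.40 to 0.82 at 0.3 nM and 0.47 to 0.89 at 1.2 nM. Whether the changes of the CLOCK genes differed from each other was not tested.

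Transcripts of npas2, which encodes the CLOCK relative known from the mouse forebrain, were at 11.9, 14.7 and 15.01 CPM in DMSO brains, 19.6, 18.6 and 19.9 CPM after 0.3 nM and 16.1, 16.8 and 17.8 CPM after 1.2 nM. The 3 groups did not overlap, with the 1.2 nM brains in the middle. The log2 fold change was 0.50 at 0.3 nM (SE 0.11, 1.41-fold, adjusted p = 0.0150, edgeR quasi-likelihood test). At 1.2 nM it was 0.29 (SE 0.11, adjusted p = 0.105), which did not pass the test. The 0.3 nM call of npas2 (ENSDARG00000016536) was lost without 0.3 nM replicate 3 (edgeR adjusted p = 0.0557) and passed in the other 5 of the 6 fits.

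Of the BMAL-type partners, bmal2 had the largest fold changes among the 6 genes at both doses. It stood at 10.5, 11.7 and 9.28 CPM in DMSO brains, at 15.7, 16.9 and 16.2 CPM after 0.3 nM and at 18.7, 16.9 and 16.2 CPM after 1.2 nM. No exposed brain was as low as any DMSO brain. The log2 fold change was 0.65 at 0.3 nM (SE 0.11, 1.57-fold, adjusted p = 0.00832, edgeR quasi-likelihood test) and 0.72 at 1.2 nM (SE 0.11, 1.65-fold, adjusted p = 0.0144). Without DMSO replicate 3, these values were 0.56 and 0.64, with edgeR adjusted p of 0.0180 and 0.0246. The 1.2 nM call of bmal2 (ENSDARG00000041381) passed in 3 of the 6 fits that left out 1 library, and was lost without 1.2 nM replicate 1, 2 or 3 (edgeR adjusted p = 0.0684, 0.0538 and 0.0672).

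The BMAL1 genes, whose product is the main partner of CLOCK in mammals, gave smaller differences. BMAL1 ENSDARG00000006791 stood at 50.6, 54.6 and 50.9 CPM in DMSO brains, at 65.5, 59.8 and 55.7 CPM after 0.3 nM and at 62.6, 68.6 and 75.0 CPM after 1.2 nM. All exposed brains were above all DMSO brains, narrowly so at 0.3 nM. The log2 fold change was 0.23 at 0.3 nM (SE 0.089, adjusted p = 0.102, edgeR), which did not pass the test, and 0.41 at 1.2 nM (SE 0.088, 1.32-fold, adjusted p = 0.0280).

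BMAL1 ENSDARG00000035732 stood at 27.8, 35.4 and 29.4 CPM in DMSO brains, at 41.9, 34.0 and 45.5 CPM after 0.3 nM and at 40.9, 44.0 and 42.8 CPM after 1.2 nM. The 0.3 nM brains overlapped the DMSO brains, since replicate 2 of the former was below replicate 2 of the latter, and the 1.2 nM brains did not. The log2 fold changes were 0.41 (SE 0.12, 1.33-fold, adjusted p = 0.0457, edgeR quasi-likelihood test) and 0.47 (SE 0.12, 1.38-fold, adjusted p = 0.0385). Without DMSO replicate 3, neither BMAL1 gene was called at either dose, with log2 fold changes of 0.21 and 0.38 for ENSDARG00000006791 and of 0.37 and 0.43 for ENSDARG00000035732. Of the 6 fits that each left out 1 library, ENSDARG00000035732 kept its call in 2 at 0.3 nM (without DMSO or 0.3 nM replicate 2) and in 1 at 1.2 nM (without DMSO replicate 2). At 1.2 nM ENSDARG00000006791 kept its call in the same 1 of 6.

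When both doses were averaged and set against DMSO brains, 5 of the 6 genes rose, where 10.1% of all genes were called higher. The exception was CLOCK ENSDARG00000003631 (log2 fold change 0.15, adjusted p = 0.391, edgeR). Without DMSO replicate 3, 3 of the 6 were called, and without DMSO replicate 1, 2 of the 6. The median log2 fold change of the 6 genes was 0.45 at 0.3 nM and 0.44 at 1.2 nM, against -0.02 and -0.03 over all genes tested. Groups did not overlap for 4 of the 6 genes at 0.3 nM, all 4 higher in exposed brains, where 15.4% of all genes were higher with no overlap. At 1.2 nM this held for 5 of the 6, against 18.6% of all genes.

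No member was called between the doses in brain, where 0.0972% of all genes tested were called. None reached an unadjusted p under 0.05 either, against 9.64% of all genes. The estimates for 1.2 nM against 0.3 nM ran from -0.21 for npas2 (95% interval -0.44 to 0.03, adjusted p = 0.563, edgeR) to 0.17 for BMAL1 ENSDARG00000006791 (95% interval -0.02 to 0.37, adjusted p = 0.567). For npas2 all 3 brains at 1.2 nM lay below all 3 at 0.3 nM, where 7.51% of all genes were lower with no overlap. These intervals do not show that the doses had equal effects.

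Markers of other cell types were summed in the same brains, and their levels are given beside these results. The 9 radial glia and astroglia markers summed to 3496 to 3999 CPM in DMSO brains, 2889 to 3272 CPM after 0.3 nM and 2689 to 3138 CPM after 1.2 nM. The 9 microglia and macrophage markers summed to 596 to 794 CPM, 411 to 556 CPM and 446 to 499 CPM in the same order. The 10 oligodendrocyte markers summed to 10775 to 16459 CPM in DMSO brains, 7520 to 9337 CPM after 0.3 nM and 8599 to 10967 CPM after 1.2 nM, and the 7 endothelial markers to 193 to 218, 169 to 202 and 166 to 204 CPM. The 7 erythroid markers summed to 142 to 250, 93.0 to 130 and 88.3 to 170 CPM. For radial glia, microglia, and meninges and cartilage, exposed brains were lower with no overlap at both doses. This held at 0.3 nM alone for oligodendrocytes and erythroid cells, and at 1.2 nM alone for skeletal muscle. The endothelial groups overlapped at both doses. Of all genes tested singly, 17.7% at 0.3 nM and 17.4% at 1.2 nM were lower with no overlap. By edgeR, 4 of the 9 radial glia and astroglia markers were called lower at each dose, 3 of the 9 microglial markers at each dose, and 4 and 1 of the 10 oligodendrocyte markers at 0.3 and 1.2 nM. Over all genes tested, 5.9% were called lower at 0.3 nM and 3.36% at 1.2 nM. Of the 12 meninges and cartilage markers, 4 were called lower at 0.3 nM and 3 at 1.2 nM. With both doses averaged, 7 were, where 8.08% of all genes were called lower. Their median log2 fold changes were -2.22, -1.8 and -2 in that order. Of the 4 erythroid markers tested, 1 was called lower at 0.3 nM and 0 at 1.2 nM. Of the endothelial, pituitary, photoreceptor and muscle markers tested, 0 were called at either dose by edgeR. Among the 12 neuronal markers, 1 was called higher at each dose and 3 with both doses averaged, and the median log2 fold change was 0.12 at 0.3 nM and 0.26 at 1.2 nM, against -0.02 and -0.03 over all genes. Of all genes, 7.82% were called higher at 0.3 nM, 5.69% at 1.2 nM and 10.1% with both doses averaged. None of the markers of glia, microglia, oligodendrocytes or endothelium was at 0 in any brain library. The pituitary markers reached 399 CPM in DMSO replicate 3 and 7.54 to 48.8 CPM in the other brains. The photoreceptor and pineal markers summed to 102 CPM in DMSO replicate 2 and to 4.43 and 6.01 CPM in the other DMSO brains. After 0.3 nM these markers summed to 38.9 CPM in replicate 3 and to 3.45 and 6.60 CPM in the others. After 1.2 nM the range was 3.70 to 4.48 CPM. The part of these cell types, and of depth, in the differences of the clock activators was not tested.

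Larvae at 5 dpf had 0 of the 6 genes called after 0.3 nM, where 0% of all genes tested were called and 4.76% had an unadjusted p under 0.05, which was the case for 0 of the 6. The log2 fold changes ran from -0.20 for npas2 to 0.04 for CLOCK ENSDARG00000011703. After 1.2 nM, 0 of the 6 were called by edgeR against 0.046% of all genes, and 2 of the 6 had an unadjusted p under 0.05 against 6.78% of all genes.

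Those 2 were the first CLOCK and the first BMAL1 gene described above. CLOCK ENSDARG00000011703 stood at 27.7, 26.6 and 24.6 CPM in DMSO larvae, at 27.8, 29.3 and 24.0 CPM after 0.3 nM and at 30.6, 36.0 and 32.8 CPM after 1.2 nM. The 1.2 nM larvae were above all others, while the DMSO and 0.3 nM larvae overlapped. The log2 fold change at 1.2 nM was 0.33 (SE 0.09, unadjusted p = 0.00242, adjusted p = 0.434, edgeR quasi-likelihood test). BMAL1 ENSDARG00000006791 stood at 24.8, 23.6 and 23.5 CPM in DMSO larvae, at 23.4, 24.3 and 22.01 CPM after 0.3 nM and at 28.3, 29.1 and 29.1 CPM after 1.2 nM. It too was higher in all 3 larvae at 1.2 nM than in the other 6 larval libraries, with a log2 fold change of 0.26 (SE 0.074, unadjusted p = 0.00287, adjusted p = 0.452, edgeR). Groups did not overlap for these 2 of the 6 genes, where 6.68% of all genes were higher at 1.2 nM with no overlap.

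BMAL1 ENSDARG00000035732 stood at 22.3, 23.3 and 20.1 CPM in DMSO larvae, at 17.9, 19.9 and 20.5 CPM after 0.3 nM and at 25.2, 26.8 and 21.8 CPM after 1.2 nM. The 1.2 nM larvae were above the 0.3 nM larvae and overlapped the DMSO larvae. Between the doses at 5 dpf, 0 of the 6 genes were called, against 0.023% of all genes. The largest estimates were 0.33 for this gene (adjusted p = 0.918, edgeR), 0.31 for BMAL1 ENSDARG00000006791 (adjusted p = 0.519) and 0.29 for CLOCK ENSDARG00000011703 (adjusted p = 0.993), and these 3 were the members with an unadjusted p under 0.05, against 4.57% of all genes. Each of these 3 had no overlap between the doses, where 5.47% of all genes were higher at 1.2 nM with no overlap.

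The remaining 3 genes overlapped between all larval groups. CLOCK ENSDARG00000003631 ranged from 41.2 to 48.2 CPM over the 9 larval libraries, npas2 from 12.7 to 18.5 CPM and bmal2 from 11.6 to 15.8 CPM. With both doses averaged against DMSO at 5 dpf, 0 of the 6 were called, as were 0% of all genes, and 6.04% of all genes had an unadjusted p under 0.05, among them 1 of the 6, CLOCK ENSDARG00000011703 (0.18, adjusted p = 0.813, edgeR).

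Embryos at 48 hpf had 0 of the 6 genes called after 0.3 nM, where 0.00987% of all genes tested were called. This fit had no block for the replicate number, although same-numbered libraries were taken as pairs at this age. None of the 6 had an unadjusted p under 0.05, against 2.59% of all genes. The log2 fold changes ran from -0.03 for CLOCK ENSDARG00000003631 to 0.10 for CLOCK ENSDARG00000011703 (95% interval -0.12 to 0.32). The latter stood at 20.9, 20.7 and 18.5 CPM in DMSO embryos and at 21.95, 21.3 and 21.1 CPM after 0.3 nM, the only member whose groups did not overlap at this age, against 3.8% of all genes higher with no overlap. The widest interval was that of npas2 (0.04, 95% interval -0.54 to 0.61), which had 22 to 41 reads per embryo library. Its levels were 2.29, 1.79 and 1.98 CPM in DMSO embryos and 2.80, 1.70 and 1.69 CPM after 0.3 nM, and replicate 1 of the exposed embryos alone lay above the DMSO range.

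**Figure D2:**
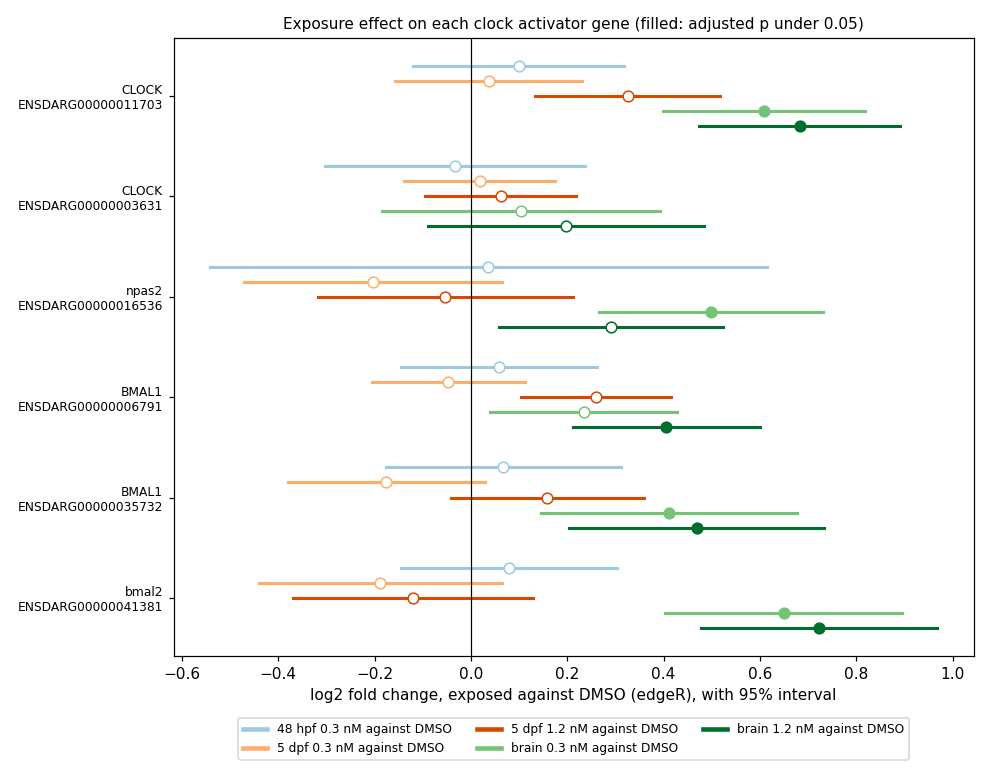
Log2 fold change of exposed against DMSO libraries (horizontal axis, edgeR) for each clock activator gene in the 5 comparisons with DMSO, with its 95% interval; filled points have an adjusted p under 0.05 over all genes. The 8 filled points are all in brain, from 0.41 to 0.72, and no interval of the embryo comparison leaves out 0.

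Whether the effect differed between ages was tested as an interaction in 1 edgeR fit of all 24 libraries. The effect of 0.3 nM was larger in brain than at 5 dpf for 4 of the 6 genes, where 2.69% of all genes were called with a higher effect in brain. The differences of the log2 fold changes were 0.82 for bmal2 (SE 0.16, adjusted p = 0.00594, edgeR quasi-likelihood test), 0.68 for npas2 (SE 0.19, adjusted p = 0.0387), 0.57 for BMAL1 ENSDARG00000035732 (SE 0.16, adjusted p = 0.0387) and 0.55 for CLOCK ENSDARG00000011703 (SE 0.13, adjusted p = 0.0163). In these 4 genes the estimate at 5 dpf was between -0.20 and 0.04. Leaving out any of 6 single libraries, among them DMSO larvae 1 and 2 and DMSO brain 1, left 2 of the 6 genes called, in fits that called 540 to 1299 genes in all against 1288 with every library. Over the 12 fits that each left out 1 library, bmal2 and CLOCK ENSDARG00000011703 kept their calls in 12. The call of npas2 held in 5 of the 12, and that of BMAL1 ENSDARG00000035732 in 3.

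For 1.2 nM the effect differed between brain and 5 dpf in 1 of the 6 genes, bmal2, where 0.506% of all genes were called with a higher effect in brain. The difference was 0.84 (SE 0.16, adjusted p = 0.0135, edgeR), and without DMSO larva replicate 2 no member was called, in a fit with 63 genes called against 336 with every library. For CLOCK ENSDARG00000011703, higher at both ages after 1.2 nM but called in brain alone, the difference was 0.35 (95% interval 0.08 to 0.61, adjusted p = 0.143). The effect of 0.3 nM differed between 5 dpf and 48 hpf in 0 of the 6 genes by edgeR, none of them with an unadjusted p under 0.05, and in 0% of all genes tested, against 3.64% of all genes with an unadjusted p under 0.05.

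In DMSO fish the 6 genes followed different courses with age. From 48 hpf to 5 dpf, 3 rose, 2 fell and 1 was not called, where 63.7% of all genes tested were called in either direction. The largest rise was that of npas2, from 2.02 ± 0.25 to 16.2 ± 3.12 CPM (mean ± SD, n = 3), a log2 fold change of 3.01 (SE 0.17, 8.06-fold, adjusted p = 3.38e-13, edgeR quasi-likelihood test). CLOCK ENSDARG00000003631 rose 2.20-fold, from 20.9, 19.2 and 19.9 CPM to 43.8, 47.0 and 41.2 CPM (1.14, SE 0.12, adjusted p = 1.28e-08). CLOCK ENSDARG00000011703 rose 1.31-fold (0.39, SE 0.096, adjusted p = 0.000991).

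The BMAL-type genes fell or were not called over the same interval. Transcripts of bmal2 fell by 1.97 on the log2 scale, from 57.1, 58.8 and 57.2 CPM to 13.002, 15.8 and 15.5 CPM (3.92-fold lower, SE 0.11, adjusted p = 1.88e-13, edgeR quasi-likelihood test). BMAL1 ENSDARG00000006791 fell by 0.33 (SE 0.08, adjusted p = 0.000928), from 31.3, 29.6 and 29.6 CPM to 24.8, 23.6 and 23.5 CPM. BMAL1 ENSDARG00000035732 was at 21.96, 23.6 and 24.2 CPM in DMSO embryos and overlapped the DMSO larvae (-0.09, SE 0.12, adjusted p = 0.532).

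Between DMSO larvae and DMSO brains 5 of the 6 genes were called, where 77.4% of all genes were. BMAL1 ENSDARG00000006791 was higher in brain by 1.12 on the log2 scale (2.17-fold, adjusted p = 3.75e-12, edgeR), CLOCK ENSDARG00000011703 by 0.51 and BMAL1 ENSDARG00000035732 by 0.49. CLOCK ENSDARG00000003631 and bmal2 were lower, each with a log2 difference of -0.49. For npas2 the difference was -0.23 (adjusted p = 0.130), and npas2 (ENSDARG00000016536) was called lower under 4 of 12 alternatives: with size factors (-0.37, adjusted p = 0.0187, edgeR), with library size alone (-0.32, 0.0410), by DESeq2 (-0.37, 0.0190) and without DMSO larva replicate 3 (-0.36, 0.0195). Size factors moved the median of all genes from 0.06 to -0.08.

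Ordered by mean level, brain groups led for CLOCK ENSDARG00000011703 and for both BMAL1 genes, larvae for CLOCK ENSDARG00000003631 and embryos for bmal2. For CLOCK ENSDARG00000011703 the order ran from 60.2 CPM in brains after 1.2 nM and 56.6 CPM after 0.3 nM, through 37.6 CPM in DMSO brains, to 20.02 CPM in DMSO embryos. The ranges of the 2 exposed brain groups overlapped, and the next group, DMSO brains, lay apart from them. For bmal2 the embryo groups (60.9 and 57.7 CPM) lay apart from all others, and the DMSO brains came last with 10.5 CPM. For npas2 the brains after 0.3 nM came first with 19.4 CPM and lay apart from the brains after 1.2 nM, and both embryo groups came last, apart from all others.

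The reads on the 2 CLOCK genes were also set against each other within each library, which needs no scaling between libraries. The log2 ratio of ENSDARG00000003631 to ENSDARG00000011703 is given as a description with no test, and its size depends on the lengths of the genes. It was 0.74 ± 0.080 (SD, n = 3) in DMSO larvae, 0.72 ± 0.23 after 0.3 nM and 0.48 ± 0.15 after 1.2 nM. In DMSO brains it was -0.27 ± 0.18, and after 0.3 nM and 1.2 nM it was -0.77 ± 0.15 and -0.76 ± 0.25. The DMSO brains ranged from -0.43 to -0.08 and the exposed brains from -0.97 to -0.48, so they did not overlap. The larvae after 1.2 nM, at 0.31 to 0.58, also lay below the other larvae with no overlap. DMSO larvae ranged from 0.66 to 0.82 and larvae after 0.3 nM from 0.59 to 0.99, and these groups overlapped. The same ratio of BMAL1 ENSDARG00000006791 to BMAL1 ENSDARG00000035732 was 0.76 ± 0.12 in DMSO brains, 0.58 ± 0.27 after 0.3 nM and 0.69 ± 0.10 after 1.2 nM, with groups that overlapped.

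**Figure D3:**
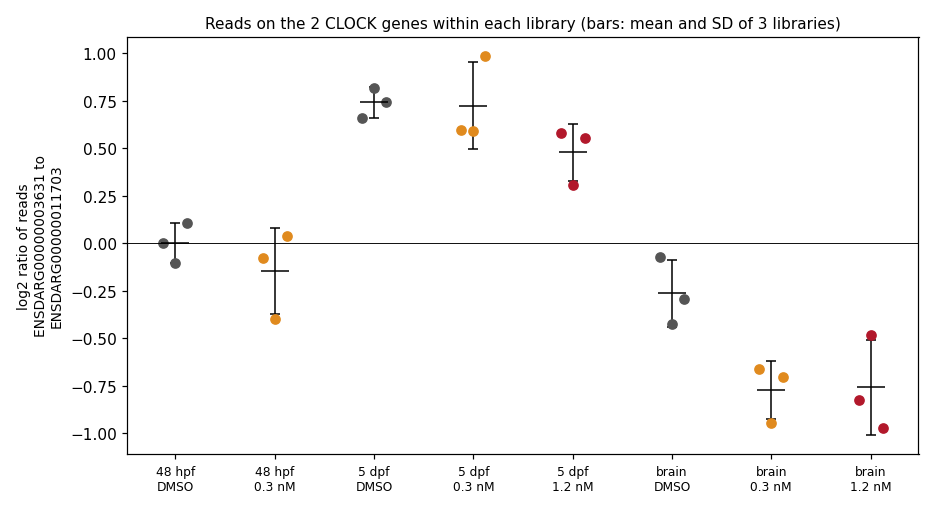
Log2 ratio of reads on CLOCK ENSDARG00000003631 to reads on CLOCK ENSDARG00000011703 in each library (vertical axis), by group; points are libraries, and bars are the mean and SD of 3. The ratio is above 0 in all 9 larval libraries and below 0 in all 9 brain libraries, and lowest in the exposed brains. Its place relative to 0 depends on the lengths of the genes, so only shifts between groups can be read.

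The rest of the clock was described with 56 further genes found in the files, of which 54 passed the filter in brain. The listed repressor genes were mostly lower after 1.2 nM and mixed after 0.3 nM. Of 19 genes listed as repressors by family (PER, CRY, REV-ERB, ciart and BHLHE40/41), 2 fell and 3 rose after 0.3 nM. Of all genes, 5.9% were called lower and 7.82% higher. Whether each listed gene represses the pair was not tested. After 1.2 nM, 12 fell and 2 rose, against 3.36% of all genes called lower and 5.69% called higher. The median log2 fold change of the 19 was -0.52 against -0.03 over all genes. Without 1.2 nM replicate 1, 2 or 3, 5, 3 and 2 repressors were called lower, in fits whose calls over all genes fell from 1769 to 38, 44 and 13.

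Among the repressors after 1.2 nM, ciarta, which encodes a repressor of the CLOCK and BMAL1 pair known from the mouse, went from 25.6 ± 1.97 CPM in DMSO brains to 7.20 ± 0.55 CPM, a log2 fold change of -1.82 (SE 0.11, adjusted p = 5.18e-05, edgeR quasi-likelihood test). The REV-ERB gene NR1D1 fell from 14.8 ± 2.94 to 3.57 ± 1.61 CPM (-2.05, adjusted p = 0.0226), and NR1D2 fell as well (-0.87, adjusted p = 0.00426). Of the period genes, both PER1 genes fell (-0.83 for ENSDARG00000012499 and -1.47 for ENSDARG00000056885), as did PER2 (-0.43) and PER3 (-0.48).

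After 0.3 nM none of the 4 period genes was called (PER3 0.32, PER2 0.28, PER1 ENSDARG00000012499 0.24 and PER1 ENSDARG00000056885 -0.29, edgeR adjusted p from 0.0742 to 0.401). The repressors that fell were ciarta (-0.64, adjusted p = 0.00746, edgeR) and NR1D2 (-0.29, adjusted p = 0.0469), and those that rose were cry3b (0.37), cry3a (0.28) and nr1d4b (0.76), the last 2 being named after their values were seen. The REV-ERB genes NR1D1 and nr1d2a were not called at this dose. Between the doses, 4 of the 19 repressors were lower after 1.2 nM, where 0.046% of all genes were called lower: ciarta (-1.18), PER1 ENSDARG00000012499 (-1.07), PER3 (-0.80) and NR1D2 (-0.58). This count ran from 1 to 6 when single libraries were left out, in fits that called 2 to 30 genes in all against 19 with every library. None of the activators was called between the doses, as given above.

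Of 5 ROR receptor genes, rorcb rose at both doses, from 41.3 ± 6.28 CPM in DMSO brains to 109.9 ± 12.3 CPM after 0.3 nM and 104 ± 16.4 CPM after 1.2 nM. Its log2 fold changes were 1.43 and 1.34 (edgeR adjusted p = 0.00293 and 0.00723), larger than those of any of the 6 activators. RORA rose after 0.3 nM (0.51, adjusted p = 0.0136, edgeR) and missed the threshold after 1.2 nM (0.36, adjusted p = 0.0518). For rorca the values were 0.36 and 0.38 (adjusted p = 0.0525 and 0.0522), for RORB 0.30 and 0.21, and for rorab 0.14 and -0.01. So 2 of the 5 were called higher after 0.3 nM and 1 after 1.2 nM, against 7.82% and 5.69% of all genes.

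Of 12 tested output genes, nfil3-5, a relative of the E4BP4 repressor gene NFIL3, rose at both doses (1.12 and 1.20, edgeR adjusted p = 0.00877 and 0.0180), and dbpa, a PAR bZIP gene driven by E-boxes in mammals, fell at both (-0.37 and -0.61, adjusted p = 0.0223 and 0.0139). NFIL3 rose after 0.3 nM (0.55) and tefa fell after 1.2 nM (-0.47). Of 18 genes for enzymes that act on clock proteins, a GSK3A kinase gene and gsk3bb rose at both doses (GSK3A 0.69 and 0.58, gsk3bb 0.58 and 0.67). USP2 fell after 0.3 nM (-0.34). The symbol GSK3A is shared by ENSDARG00000015681 and ENSDARG00000029501, of which a single gene was called at 0.3 nM. In all, 9 of the 54 genes rose and 4 fell after 0.3 nM, where 7.82% of all genes were called higher and 5.9% lower. After 1.2 nM, 7 rose and 14 fell, against 5.69% and 3.36%.

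At the earlier ages 0 of 52 such genes were called at 48 hpf by edgeR and 0 of 54 after 0.3 nM at 5 dpf. Of all genes tested, 0.00987% and 0% were called in these comparisons. After 1.2 nM at 5 dpf, rorcb (0.51, adjusted p = 0.0392, edgeR) and nfil3-5 (0.45, adjusted p = 0.0484) rose, and 52 of the 54 were not called. Of all genes, 0.0322% were called higher there. Between the doses at 5 dpf, 1 of the 54, a ROR gene, was called higher at 1.2 nM, against 0.00921% of all genes. With age, from DMSO embryos to DMSO larvae, 16 of the 19 repressors rose and 2 fell, where 32.3% of all genes were called higher and 31.4% lower.

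**Figure D4:**
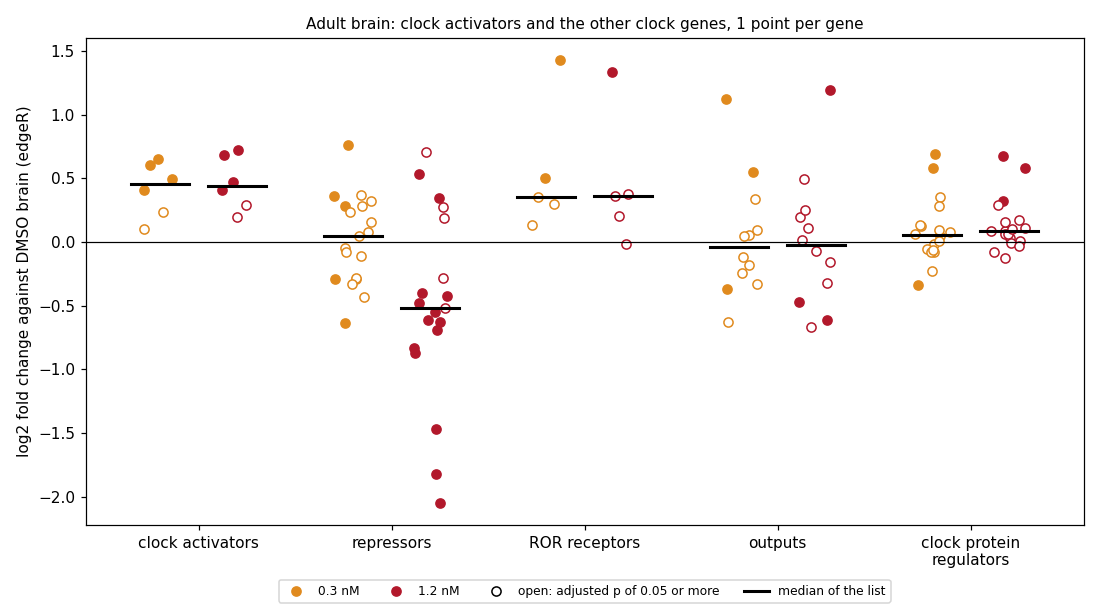
Log2 fold change against DMSO brains (vertical axis, edgeR) of the 6 clock activators and of the other clock genes tested in brain, 1 point per gene, for 0.3 nM and 1.2 nM; open points have an adjusted p of 0.05 or more and black bars are the medians of the lists. All 6 activators lie above 0 at both doses, and the repressors have a median of 0.05 at 0.3 nM and of -0.52 at 1.2 nM.

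Genes with the most similar pattern over the 9 brain libraries were sought among 15488 genes, by the root mean square difference of log2 CPM after each gene was centred and scaled to unit SD. This is a description over 9 libraries that share their groups and depth. The nearest to CLOCK ENSDARG00000011703 were si:ch211-14c7.2 (0.10 SD), NTRK3 (0.13), a neurotrophin receptor gene, and LRCH2 (0.19). The nearest to bmal2 were PDE4A and PCNX1 (each 0.14) and RNF19B (0.15), and the nearest to npas2 were SEPTIN7 (0.18), CFAP57 (0.26) and znf1152 (0.27). The nearest to BMAL1 ENSDARG00000035732 were prodhb (0.16), rorca (0.21) and PLCH1 (0.27). So 1 of the 18 genes named in this way was among the other clock genes, of which no more than 54 were among the 15488 searched. BMAL1 ENSDARG00000006791 had CDK5R1 (0.26), EGR3 (0.26) and EOGT (0.31), and CLOCK ENSDARG00000003631 had LAMP2 (0.29), sorcs3b (0.33) and EVL (0.36). The distances were larger for the last pair of genes than for CLOCK ENSDARG00000011703 and bmal2. Scaling removes the size of a change. At 0.3 and 1.2 nM the log2 fold changes were 0.50 and 0.29 for npas2. They were 0.16 and 0.10 for SEPTIN7, 0.39 and 0.19 for CFAP57, and 0.59 and 0.31 for znf1152.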

How the data were processed

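Deposited were raw counts, the number of reads assigned to each Ensembl gene in each library. The authors made them with FastQC, STAR, HTSeq and edgeR on GRCz10, per the submitters' processing notes (versions not given in the sources used here). Counting was reverse-stranded in HTSeq union mode, per the names of the deposited files, so a read that overlaps several genes is not counted. Libraries were stranded and depleted of ribosomal RNA, per the labels' protocols. No table of sequences or gene lengths of this build was used, so levels are not compared between genes.

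Counts were analysed with edgeR 4.0.16 (limma 3.58.1) in R 4.3.3: filterByExpr (minimum count 10), TMM scaling, and robust quasi-likelihood F tests. P-values were adjusted by Benjamini-Hochberg over all genes tested, and 0.05 was the threshold for a call. The groups of 1 age shared a fit. Comparisons between ages were made in 1 fit over all ages. The standard error is the log2 fold change divided by the square root of F, and intervals are at 95%. CPM came from TMM over all 24 libraries. Read ratios used a pseudocount of 0.5, and log2 CPM for similar patterns a prior count of 2 and genes with a mean of at least 1. The fits were tested on simulated data, with 50 genes changed at each size and all others unchanged. The changed genes were drawn from those with a mean count of at least 50. In brain, 4% of 1.3-fold changes were called at each dose. At 0.3 and 1.2 nM, 30% and 48% of 1.5-fold and 80% and 76% of 2-fold changes were. At 48 hpf, 10% of 1.3-fold and 48% of 1.5-fold changes were called, and for 1.2 nM at 5 dpf 26% and 64%. Far fewer genes were changed here than were called in the brain data (2683 at 0.3 nM and 1769 at 1.2 nM). The adjustment was therefore stricter in the simulated brains, and these shares are not the sensitivity of the reported tests.

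The 6 genes, the gene lists and the markers were chosen with earlier results of these data known. Named are all 6 genes, up to 10 called clock genes per comparison by smallest p, in brain also the period, NR1D1, NR1D2 and ROR genes, and the 3 nearest genes of each member. Alternatives were DESeq2 1.42.0, size factors, library size alone, no filter, no robust fitting, other sets of libraries in the fit, thinned counts, a block for the replicate number and leaving out each library. All pairs of replicates differed by more than sampling noise (chi-square per degree of freedom at least 2.42).

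Replicate numbers were taken as pairs where the deviations of every same-numbered pair of libraries from their group means correlated at over 0.1. This was met at 48 hpf (0.288 to 0.396, mean of other pairs -0.174) and not in larvae or brain, where such pairs ran from -0.207 to 0.269. The nearest to it were larvae at 0.3 with 1.2 nM (0.0742 to 0.269, other pairs -0.0933) and brain DMSO with 0.3 nM (0.0381 to 0.0721, other pairs -0.0292). Deviations from a group mean cancel out within the group. The mean of the other pairs therefore follows largely from the same-numbered pairs and is no separate evidence of pairing.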

Additional observations from a re-analysis of the deposited data

Results flagged for a closer look

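The exposure effect differed between adult brain and 5 dpf larvae in 5 results, each by an interaction term of 1 edgeR quasi-likelihood fit of all 24 libraries with Benjamini-Hochberg adjustment. For 0.3 nM the log2 effect in brain exceeded that in larvae by 0.82 for bmal2 (adjusted p = 0.00594), by 0.68 for npas2 (adjusted p = 0.0387), by 0.57 for BMAL1 ENSDARG00000035732 (adjusted p = 0.0387) and by 0.55 for CLOCK ENSDARG00000011703 (adjusted p = 0.0163). For 1.2 nM it did so by 0.84 for bmal2 (adjusted p = 0.0135). When each of 12 libraries was left out in turn, the 0.3 nM calls of bmal2 and CLOCK ENSDARG00000011703 held in 12 fits. Those of npas2 and BMAL1 ENSDARG00000035732 held in 5 and 3 fits, and the 1.2 nM call of bmal2 in 11. For bmal2 the estimates at 5 dpf were -0.19 and -0.12 and those in brain 0.65 and 0.72. Age, tissue and RNA preparation differ together between these groups and cannot be told apart.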

How the results depend on the processing

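Under the alternatives other than leaving out libraries, the number of members called stayed within 1.5 times of that reported in all 14 comparisons. Leaving out single libraries moved it: from 4 to between 2 and 4 for 0.3 nM in brain (2 without 0.3 nM replicate 3, where 971 genes in all were called against 2683), from 4 to between 0 and 4 for 1.2 nM in brain (2 without DMSO replicate 1 or 3, 1 without 1.2 nM replicate 1 or 2, 0 without replicate 3, in fits whose calls over all genes fell from 1769 to 462, 530, 38, 44 and 13 in that order), and from 5 to between 2 and 5 for both doses in brain (2 and 3 without DMSO replicate 1 and 3, with 1874 and 1554 genes called against 3555). It ran between 2 and 4 for the difference of the 0.3 nM effect between brain and 5 dpf, and between 0 and 1 for that of 1.2 nM. The calls of CLOCK ENSDARG00000011703 and bmal2 at 0.3 nM held under every alternative, with log2 fold changes of 0.54 to 0.69 and 0.56 to 0.74 when single libraries were left out. At 1.2 nM the former was lost without 1.2 nM replicate 3 (adjusted p = 0.0672) and the latter (ENSDARG00000041381) without each 1.2 nM replicate (0.0684, 0.0538 and 0.0672). The cause was not tested. With DESeq2 or all 24 libraries in 1 fit, 11 repressors in place of 4 were lower at 1.2 nM than at 0.3 nM in brain, and 4 in place of 2 were lower at 0.3 nM than in DMSO. The latter count moved by more than 1.5 times under 10 alternatives, and ran from 1 to 2 when single libraries were left out. With the replicate number as a block, 7 of the 54 other clock genes rose and 2 fell at 0.3 nM, in place of 9 and 4. At 1.2 nM 6 rose and 13 fell, in place of 7 and 14. Between the doses 2 fell in place of 4.

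With the replicate number as a block, 3 members were called at 0.3 nM and 3 at 1.2 nM in brain, since BMAL1 ENSDARG00000035732 was lost (adjusted p = 0.0776 and 0.0660); at 48 hpf, where the numbers pair the libraries, the block left 0 called, and it changed no other count of members. Of the log2 fold changes, 3 uncalled ones changed sign by more than their SE. When single libraries were left out, that of npas2 (ENSDARG00000016536) at 48 hpf ran from -0.25 (without 0.3 nM replicate 1) to 0.17, its difference between 5 dpf and 48 hpf from -0.38 to 0.0556 (without the same library), and that of CLOCK ENSDARG00000003631 for 1.2 nM against 0.3 nM in brain from -0.0493 (without 1.2 nM replicate 2) to 0.18. A further 28 uncalled values changed sign within 1 SE. At 48 hpf npas2 had 22 to 41 reads per library.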
